A study of Mus musculus with 10 samples.

Results

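Schwann cells wrap, insulate and nourish the axons of peripheral nerves, and 8 of their genes are described here in a fat depot: S100b, Sox10, Mbp, Prx, Pmp22, Cdh19, Egr2 and Ngfr. They were chosen by name, and all 8 were found among the 52636 gene identifiers of the count table. The levels come from inguinal white adipose tissue, a subcutaneous depot, of C57BL/6 mice aged 6 months on a 65% high-fat diet. The labels give 3 lengths for that diet, 16 weeks (diet), 12 weeks (description) and 4 months (treatment). Controls (5 libraries) carried floxed alleles of the gene with no Cre (TCF7L2F/F in the protocol, F/F in the titles), although their genotype label reads wild type. The 5 knockout libraries came from mice with the same floxed alleles and Adp-Cre, the recombinase of an adipocyte-targeted deletion, whose promoter the labels do not spell out. Schwann cells are therefore not the cells in which the deletion was made by design. Tcf7l2 is a DNA-binding partner of beta-catenin in the Wnt pathway, and the comparison asks which transcripts of the whole depot differ when it is deleted in fat cells.

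Sox10 is the transcription factor that sets the Schwann cell lineage, and together with Egr2 (Krox20) it switches on the genes of myelin. A myelinating cell then spirals its membrane around a single large axon and packs it with proteins such as Mbp and Pmp22, while periaxin (Prx) anchors the outer surface. A non-myelinating (Remak) Schwann cell instead holds bundles of thin axons, the kind that sympathetic nerves send into fat, and keeps genes such as Ngfr, Ncam1 and Scn7a. Several of the 8 genes are also used outside nerve. S100b is known in adipocytes, Pmp22 in fibroblasts, and Egr2 in macrophages and early fat cell differentiation. Mbp shares its locus with the Golli transcripts of immune cells.

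Tcf7l2 (GRCm38 chromosome 19, 55741820 to 55933654, plus strand) was lower in all 5 knockout libraries than in any control. Its level was 10.7 ± 0.909 CPM in the controls and 5.83 ± 0.311 CPM in the knockouts (mean ± SD, n = 5 each), which left 54.7% of the control level (log2 fold change -0.87, edgeR adjusted p = 0.000615). CPM here means counts scaled to a common library total, with TMM factors between libraries. Total counts ran from 14032866 to 17782073 per library, so that 3 counts correspond to 0.172 to 0.205 CPM. Control libraries are numbered 1 to 5 and knockouts 6 to 10 in the labels, so genotype cannot be told apart from any handling that followed this order. The titles also carry another number, different in every library and not ordered by genotype, whose meaning is not explained. The labels do not state in words that each library is a separate mouse. If some are not, a p-value reflects only how these samples spread, which may be technical. Adipocyte RNA was present in every library: all 12 adipocyte markers were tested, summing to 38940 to 46830 CPM in the control group and 39850 to 54150 CPM in the knockout group.

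RefSeq's table of promoter windows (GRCm38.p6) holds 12 windows for 5 of the 8 genes, namely S100b, Prx, Pmp22, Egr2 and Ngfr. The 250 bases before the start are shown for S100b and Prx, because these were the members that fell, for Pmp22, because it was the most abundant and did not pass, and for Scn7a, the Remak cell gene with the steadiest fall among the other nerve genes. Pmp22 has several windows, of which the one at the lowest position is shown. The first transcribed bases of the S100b window were not found among the GENCODE transcripts of the gene. Capitals mark a match to the EGR letters.
S100b chr10:76253586-76253835 (+ strand): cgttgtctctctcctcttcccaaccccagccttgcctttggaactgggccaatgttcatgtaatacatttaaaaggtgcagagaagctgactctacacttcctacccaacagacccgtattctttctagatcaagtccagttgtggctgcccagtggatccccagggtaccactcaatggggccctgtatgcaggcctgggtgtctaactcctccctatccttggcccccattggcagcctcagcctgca
Prx chr7:27499074-27499323 (+ strand): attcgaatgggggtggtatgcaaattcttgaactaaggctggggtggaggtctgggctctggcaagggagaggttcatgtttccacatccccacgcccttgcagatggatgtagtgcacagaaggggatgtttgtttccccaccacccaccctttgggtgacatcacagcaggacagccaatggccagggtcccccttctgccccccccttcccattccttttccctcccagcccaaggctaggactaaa
Pmp22 chr11:63128732-63128981 (+ strand): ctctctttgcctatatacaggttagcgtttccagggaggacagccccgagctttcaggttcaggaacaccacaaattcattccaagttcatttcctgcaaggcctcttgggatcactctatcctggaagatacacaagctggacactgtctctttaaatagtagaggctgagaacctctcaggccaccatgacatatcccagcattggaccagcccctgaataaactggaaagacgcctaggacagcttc
Scn7a chr2:66784911-66785160 (- strand): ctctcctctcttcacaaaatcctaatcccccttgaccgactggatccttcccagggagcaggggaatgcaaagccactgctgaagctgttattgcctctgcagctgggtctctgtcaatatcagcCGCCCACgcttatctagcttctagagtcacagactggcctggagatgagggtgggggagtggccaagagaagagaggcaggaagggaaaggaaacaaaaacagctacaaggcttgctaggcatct
The windows were searched on both strands from 250 bases before to 50 after the start for 3 families of letters. SOX letters (ACAAAG or ACAATG) were found in 0 of the 5 member genes and in 28.6% of all 32851 windows. EGR letters (GCGGGGGCG or GTGGGCG) were found in 1 member gene, Egr2 itself, and in 10.4% of all windows. TCF/LEF letters (CTTTGAT or CTTTGAA) were found in 0 of the 5 and in 8.65% of all windows. Counted by window, as the shares are, matches were in 0 (SOX), 1 (EGR) and 0 (TCF/LEF) of the 12 member windows. A match of letters is a description and not a binding site, and the absence of one says only that these letters are not in this window.

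Of the 8 genes, 6 had enough counts to be tested (all but Sox10 and Ngfr). S100b and Prx fell, 0 rose, and Mbp, Pmp22, Cdh19 and Egr2 did not pass an adjusted p of 0.05. Over all 15927 genes tested, 7.05% were called lower and 5.84% higher. The median log2 fold change of the 6 was -0.49, against 0.00018 over all genes tested, and 4 of the 6 were below 0, as were 50.0% of all genes. The count of 2 was 3 without control 5 and 1 without control 1, 2, 4 or any knockout. S100b was the only member of which the control and knockout ranges did not overlap, while 4.45% of all tested genes were lower and 4.55% higher without overlap. In a bulk sample, fewer cells of a type and less RNA per cell cannot be told apart.

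**Figure D1:**
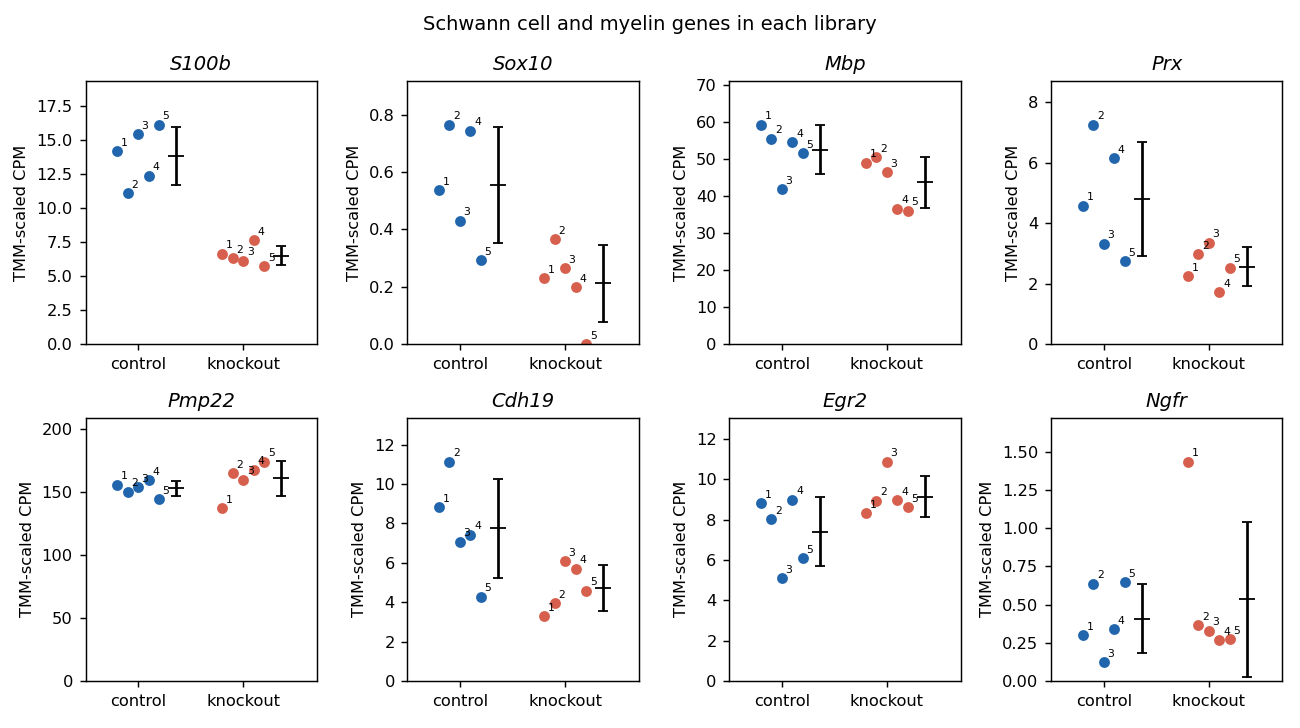
TMM-scaled CPM of the 8 Schwann cell and myelin genes in each of the 10 libraries (numbered points, blue for control and orange for knockout), with the mean and SD of the 5 libraries of each group beside them and a linear axis from 0. S100b separates the groups completely (11.1 to 16.1 against 5.75 to 7.63 CPM), whereas the points of the other 7 genes overlap.

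S100b, which encodes a calcium-binding protein used as the classical stain for Schwann cells and also present in fat cells, fell by more than any other tested member. The gene (ENSMUSG00000033208) lies on GRCm38 chromosome 10, 76253853 to 76261159, plus strand. Its CPM was 14.2, 11.1, 15.4, 12.4 and 16.1 in controls 1 to 5. In knockouts 1 to 5 it was 6.66, 6.32, 6.14, 7.63 and 5.75. The lowest control stood above the highest knockout, and the knockouts lay closer together than the controls. The mean went from 13.8 ± 2.10 to 6.50 ± 0.714 CPM (SD, n = 5 each), or 47.0% of control, resting on 84 to 275 counts per library. The log2 fold change was -1.09 (SE 0.122, edgeR quasi-likelihood adjusted p = 0.000641). It stayed between -1.16 and -1.03 whichever single library was left out, and it passed in all 10 of those fits.

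Among the structural genes of myelin, Prx fell and Mbp and Pmp22 did not pass. Prx (ENSMUSG00000053198, chromosome 7, 27499324 to 27520214, plus strand) encodes periaxin, a scaffold that ties the myelin sheath to the basal lamina through Drp2 and dystroglycan. Its CPM was 4.58, 7.26, 3.32, 6.15 and 2.76 in controls 1 to 5 and 2.24, 2.98, 3.36, 1.73 and 2.53 in knockouts 1 to 5. Controls 1, 2 and 4 stood above every knockout, and controls 3 and 5 lay inside the knockout range. The mean went from 4.81 ± 1.89 to 2.57 ± 0.637 CPM (SD, n = 5 each), and the fitted log2 fold change was -0.90 (SE 0.27, edgeR adjusted p = 0.0462). The call depends on single libraries. It held without control 3 (adjusted p = 0.0408) or control 5 (adjusted p = 0.0148) and was lost without any of the other 8, with adjusted p up to 0.128.

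Mbp, a basic protein that glues the inner faces of the myelin membrane together, lies on chromosome 18 (82475146 to 82585637, plus strand, ENSMUSG00000041607). It gave 59.3, 55.5, 41.9, 54.6 and 51.7 CPM in controls 1 to 5 and 49.1, 50.5, 46.5, 36.6 and 36.1 CPM in knockouts 1 to 5. Knockouts 4 and 5 were the lowest libraries and control 3 lay within the knockout range. Its fold change of -0.26 on the log2 scale (SE 0.114) had an unadjusted p of 0.0376 and an adjusted p of 0.136 in edgeR.

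Pmp22 (ENSMUSG00000018217, chromosome 11, 63128982 to 63159547, plus strand) encodes a membrane protein of compact myelin, and a change in its gene dose causes inherited neuropathy in people. It was the most abundant member, at 156, 151, 154, 160 and 145 CPM in controls 1 to 5 and 138, 165, 160, 168 and 174 CPM in knockouts 1 to 5. Knockout 1 was the lowest library of all and knockout 5 the highest. On the log2 scale the fold change was 0.07 (SE 0.0667, edgeR adjusted p = 0.482).

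The other myelin genes were read from a list of 18 structural parts, of which 11 were tested. Of these, 2 were lower, 0 were higher and 9 did not pass (median log2 fold change -0.08). Over all tested genes, 7.05% were called lower and 5.84% higher. Without a single library the count of lower parts ran from 0 (without control 1, 2 or 4 or knockout 5) to 2. Of the parts that did not pass, Mag, the adhesion protein facing the axon, had a log2 fold change of 0.16 (adjusted p = 0.747) and was below 0 without control 5. Mal, a proteolipid of the myelin membrane, had -0.47 (adjusted p = 0.263), and Drp2, the partner of periaxin, -0.74 (adjusted p = 0.162).

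**Figure D2:**
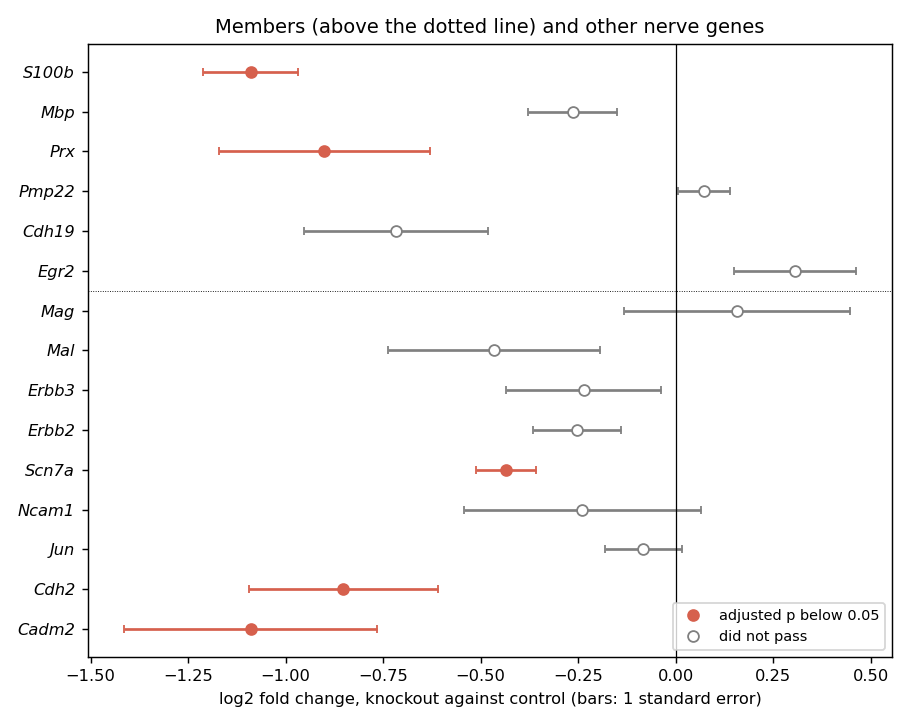
Log2 fold change of knockout against control (horizontal axis, bars of 1 standard error) for the 6 tested members above the dotted line and 9 other nerve genes below it. Filled orange points had an adjusted p below 0.05 and all of them lie below 0, from -1.09 for S100b and Cadm2 to -0.44 for Scn7a.

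Neither transcription factor among the members gave a call. Egr2 (ENSMUSG00000037868, chromosome 10, 67535475 to 67542188, plus strand), the zinc-finger factor that drives myelination, gave 8.81, 8.02, 5.10, 8.99 and 6.10 CPM in controls 1 to 5. In knockouts 1 to 5 it gave 8.33, 8.94, 10.9, 8.96 and 8.63 CPM. Knockout 3 was the highest library and controls 3 and 5 the lowest, with the rest overlapping. Its fitted log2 fold change was 0.31 (SE 0.156, edgeR unadjusted p = 0.0713, adjusted p = 0.201). Egr2 is also an immediate-early gene, induced quickly by many stimuli. The 10 other genes of that kind had 0 calls in either direction and summed to 134.9 to 164.6 CPM (controls) and 147.3 to 163.2 CPM (knockouts), and their part in the Egr2 values was not tested.

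Sox10 (ENSMUSG00000033006, chromosome 15, 79154908 to 79165240, minus strand) was near the limit of detection. It had 9, 12, 7, 11 and 5 counts in controls 1 to 5 and 4, 6, 4, 3 and 0 counts in knockouts 1 to 5, in total 44 against 17. Control 5 lay within the knockout range, and the 0 in knockout 5 allows up to 0.205 CPM, which covers counting error only. The gene failed the filter on low counts. In the fit with no filter, over 40157 genes, its log2 fold change was -1.30 (SE 0.512, edgeR adjusted p = 0.145).

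Of 20 further regulators and signals of the lineage, 13 were tested and 0 passed in either direction (median log2 fold change -0.08). They include the receptors that read neuregulin on the axon, Erbb3 at -0.24 (edgeR adjusted p = 0.439) and Erbb2 at -0.25 (adjusted p = 0.144). The ligand Nrg1 had 5 counts in all controls together and 9 in all knockouts. Pou3f1 (Oct6), which acts just before Egr2 in the lineage, had 18 and 16, and the early factors Foxd3 and Sox2 had 4 and 3 and 1 and 1. These 4 genes were not tested. Per kilobase of exon Itgb1, the most abundant of the 20, stood at 192 CPM in controls against 0.181 CPM for Sox10. Which cells of the depot make the genes of this list was not tested.

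Cdh19, a cadherin of the Schwann cell lineage, was lower on average but did not pass. The gene (ENSMUSG00000047216, chromosome 1, 110888326 to 110977584, minus strand) gave 8.81, 11.1, 7.07, 7.44 and 4.28 CPM in controls 1 to 5 and 3.28, 3.95, 6.07, 5.71 and 4.59 CPM in knockouts 1 to 5. Controls 1 to 4 stood above every knockout, and control 5 lay inside the knockout range. The log2 fold change was -0.72 (SE 0.236, edgeR unadjusted p = 0.00962, adjusted p = 0.063). It passed in 4 other fits, those with no filter (adjusted p = 0.0196), with DESeq2 (0.0274), without control 5 (0.0127) and without both control 5 and knockout 1 (0.0101).

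Ngfr (ENSMUSG00000000120, chromosome 11, 95568818 to 95587735, minus strand), the p75 neurotrophin receptor of immature, non-myelinating and repair Schwann cells, was also too low to test. It had 5, 10, 2, 5 and 11 counts in controls 1 to 5 and 25, 6, 5, 4 and 4 in knockouts 1 to 5. Knockout 1 stood alone, at 1.44 CPM against 0.266 to 0.365 CPM in the other knockouts. With no filter the log2 fold change was 0.43 (SE 0.487, edgeR adjusted p = 0.621). Knockout 1 was also the library with the most B cell RNA, where 9 markers summed to 451.2 CPM against 13.77 to 56.62 CPM in the other 9 libraries. The part of those cells in the Ngfr value was not tested.

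Among 18 further genes listed for non-myelinating Schwann cells, 14 were tested, 3 were lower, 0 were higher and 11 did not pass. The list is not particular to these cells, as it holds Cadm4, an adhesion molecule of myelinating Schwann cells. Of the 14, 12 had a log2 fold change below 0 (median -0.44). Over all tested genes, 7.05% were called lower, 5.84% higher, and 50.0% had a log2 fold change below 0. Leaving out control 5 gave 5 lower genes in the list, and leaving out control 1, control 2, knockout 2, knockout 3 or knockout 5 gave 1. Scn7a, a sodium channel of Remak Schwann cells, fell with no overlap. Its CPM was 381, 351, 355, 338 and 330 in controls 1 to 5 and 235, 233, 282, 295 and 253 in knockouts 1 to 5. Its log2 fold change of -0.44 (SE 0.0774, edgeR adjusted p = 0.00801) passed in all 10 fits that leave a library out. Per kilobase of exon Scn7a stood at 47.9 CPM in controls against 0.181 CPM for Sox10. Which cells of the depot make Scn7a or the rest of the list was not tested.

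The other 2 that fell were the cell adhesion genes Cdh2 and Cadm2, both with overlapping groups. Cdh2 (N-cadherin) went from 11.3 ± 3.93 to 6.26 ± 1.40 CPM (SD, n = 5 each; log2 fold change -0.85, edgeR adjusted p = 0.0392). The call was lost without controls 1, 2 or 3 or knockouts 2, 3 or 5, with adjusted p from 0.0707 to 0.101. Cadm2 went from 1.18 ± 0.474 to 0.549 ± 0.0972 CPM (log2 fold change -1.09, edgeR adjusted p = 0.0453). It rests on 7 to 27 counts per library and, of the 8 fits without a library in which it was tested, passed in the 1 without control 5 (adjusted p = 0.00653, against 0.0682 to 0.122 in the others). Ncam1, the neural cell adhesion molecule of Remak cells, had a log2 fold change of -0.24 (adjusted p = 0.626), which was 0.026 without control 5 and knockout 1.

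The remaining compartments of a nerve gave 0 calls in edgeR. Of 15 genes of the repair Schwann cell, the state taken on after injury, 9 were tested with a median log2 fold change of -0.0042 and 1 unadjusted p below 0.05. Jun, its master regulator, had -0.08 (adjusted p = 0.60), with the sign turned without control 5. Jun stood at 13.7 CPM per kilobase of exon in controls, and which cells of the depot make the repair genes was not tested. Of 16 genes of axons, 4 were tested (median -0.22, with 0 unadjusted p below 0.05). Th, the enzyme that marks sympathetic fibres, had 2 counts in all controls and 1 in all knockouts. The mRNA of such neurons lies mostly in cell bodies outside the depot. Of 13 genes of the perineurial and endoneurial sheath, 10 were tested (median -0.16, with 2 unadjusted p below 0.05). Over the 6 lists together, 61 of 100 genes were tested and 5 were lower, or 8.2%, which is close to the 7.05% of all tested genes, and 0 were higher.

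To set different genes side by side, levels were divided by exon length. The length takes in all annotated exons of a gene (8469 bases for Mbp), so the order depends on the annotation. Per kilobase of exon the controls ran in the order Pmp22 (65.0 CPM), S100b (9.32), Mbp (6.21), Egr2 (2.18), Cdh19 (1.81), Prx (0.863), Sox10 (0.181) and Ngfr (0.118). The control ranges of Egr2 and Cdh19, of Cdh19 and Prx and of Sox10 and Ngfr overlapped, and the other neighbours in this order did not. In the knockouts Mbp (5.17 CPM per kilobase) stood above S100b (4.38), with overlapping ranges of 4.26 to 5.97 and 3.87 to 5.14.

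Other measures moved with genotype or with single libraries. Of 7 nuclear non-coding RNAs, 4 were lower and 0 higher, against 7.05% and 5.84% of all tested genes. The lower ones include Malat1 (from 6019 to 4080 CPM, edgeR adjusted p = 0.0217) and Kcnq1ot1 (from 121.8 to 61.9 CPM, adjusted p = 0.0156). The sum of the 7 RNAs ran from 5004 to 7900 CPM (controls) and from 3863 to 5326 CPM (knockouts), and 0 of the 7 were at 0. Their score, the mean log2 CPM of the list, was 6.34, 6.32, 5.85, 6.35 and 5.67 in controls 1 to 5 and between 5.55 and 5.75 in the knockouts, so controls 1, 2 and 4 were high and control 5 lay with the knockouts, as it did for Prx, Sox10 and Cdh19. S100b did not follow this order: control 5 was its highest library.

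With this score as a covariate, an alternative added after seeing the data, the log2 fold change of S100b was -1.28 (adjusted p = 0.00652). That of Prx was -0.14 (adjusted p = 0.924), of Cdh19 -0.08 (adjusted p = 0.956) and of Scn7a -0.36 (adjusted p = 0.319). The same term left 42 genes lower and 12 higher over the whole table, in place of 1123 and 930. Controls 1 to 4 had a higher score than every knockout, so the covariate and the genotype cannot be fully told apart.

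**Figure D3:**
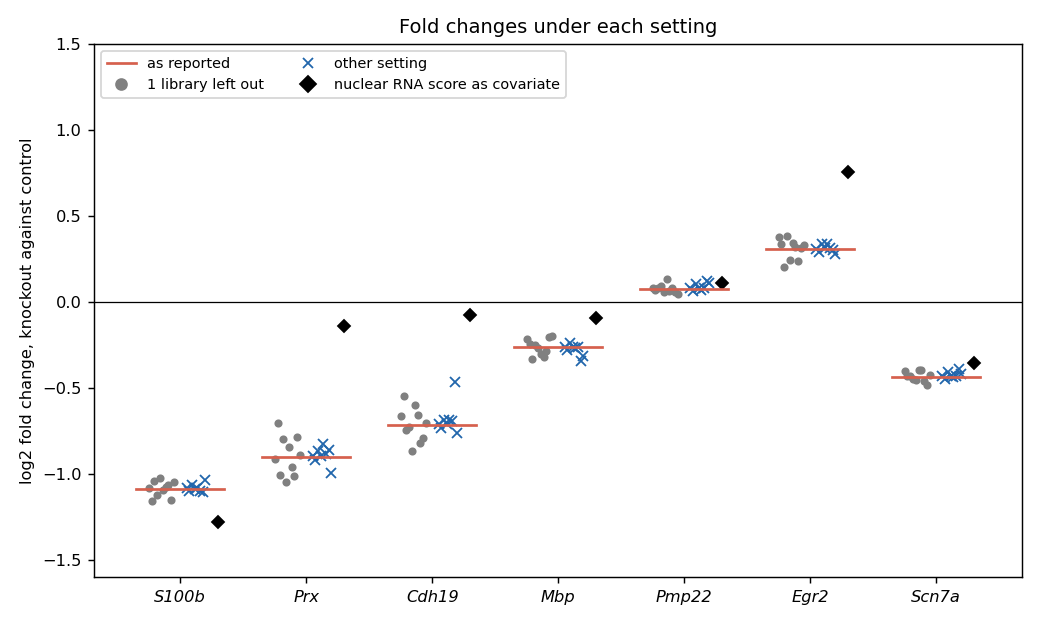
Log2 fold change of knockout against control (vertical axis) for the 6 tested members and Scn7a, as reported (orange line), with 1 library left out (grey points), under other settings (blue crosses) and with the nuclear non-coding RNA score as a covariate (black diamonds). S100b stays between -1.28 and -1.03 throughout, while Prx comes to -0.14 and Cdh19 to -0.08 with the nuclear score.

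Endothelial markers also fell, with 7 of 10 lower and a sum of 1105 to 1387 CPM (controls) and 914 to 1052 CPM (knockouts), and 0 of the 10 were at 0. For this list and those below, the shares over all tested genes were 7.05% lower and 5.84% higher. Skeletal muscle RNA differed widely between libraries. Its 14 markers summed to 70.39 to 643.5 CPM (controls) and 75.47 to 904.3 CPM (knockouts), with control 5, knockout 1 and knockout 3 high and 1 of the 14 at 0 in every library. Of the 11 tested in edgeR, 0 passed and 0 had an unadjusted p below 0.05, but all 11 had a log2 fold change above 0 (median 1.44), and the muscle scores of controls 1 to 3 (0.133 to 0.24) lay below every knockout (0.951 to 5.86). With the muscle score as a covariate S100b kept its call (log2 fold change -1.11, adjusted p = 0.00162), while Prx did not (-0.86, adjusted p = 0.119). B cell markers were higher in 4 of 9 and T cell markers in 6 of 9, with T cell sums of 39.35 to 43.52 CPM (controls) and 43.22 to 160.2 CPM (knockouts). Other lineages that use Sox10 were looked at as well: melanocytes, with 0 calls among 5 tested of 9 markers, and oligodendrocytes, of which 7 of 8 markers had a mean below 3 counts. The part of these cells in the values of the 8 genes was not tested.

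Across libraries the pairs of members correlated in both directions. Within genotypes (each group centred on its mean, 10 libraries), 16 of the 28 pairs of members correlated positively, 3 had an unadjusted exact permutation p below 0.05, and 0 had an adjusted one. The strongest was negative. S100b and Prx had a Pearson r of -0.921 (two-sided exact permutation p = 0.00181, adjusted p = 0.0507) and a Spearman rho of -0.842 (exact permutation p = 0.0084, adjusted p = 0.235). Pearson's r was -0.841 without control 2 and knockout 4 (exact permutation adjusted p = 0.372). S100b had a negative r with every other member, from -0.921 (Prx) to -0.134 (Ngfr). Apart from Prx, the lowest unadjusted exact permutation p among these pairs was 0.181 (Egr2). Without control 2 and knockout 4 their r ran from -0.841 (Prx) to 0.369 (Ngfr). The strongest positive pair was Prx and Egr2 (Pearson r = 0.725, exact permutation p = 0.0687, adjusted p = 0.331). With 10 libraries, the lack of an adjusted call does not show that members vary independently.

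**Figure D4:**
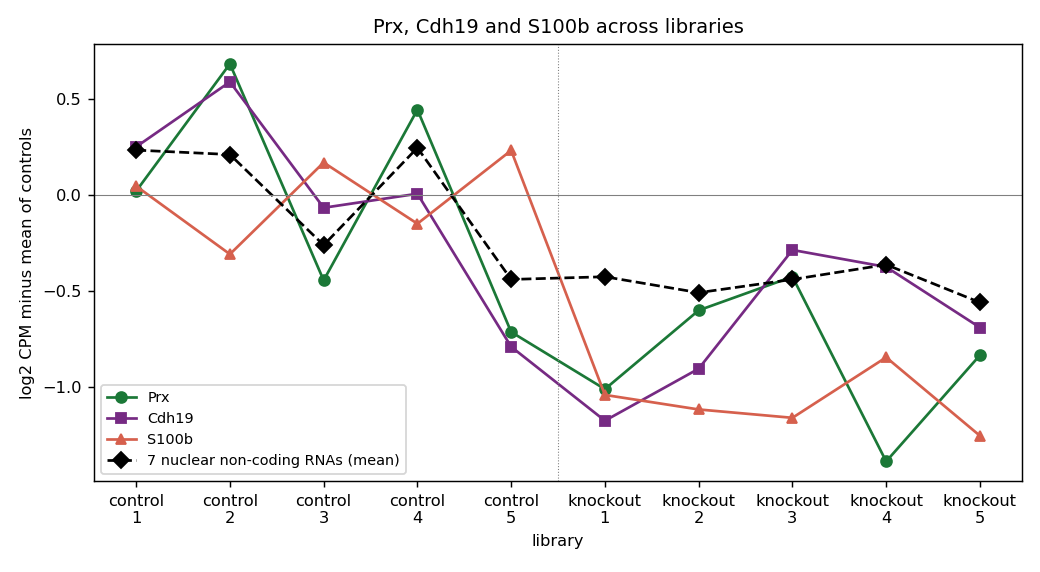
Log2 CPM of Prx, Cdh19 and S100b and the score of 7 nuclear non-coding RNAs in each of the 10 libraries (horizontal axis), each minus its mean over the 5 controls. Prx and Cdh19 both peak in control 2 and have their lowest control value in control 5, where S100b is at its highest.

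The genes most like each tested member, by the smallest root mean square difference of centred log2 CPM over the 10 libraries, were not other members. For S100b they were Nnat (0.156), Kcnj15 (0.195) and Angpt1 (0.212), where S100b itself varied by 0.56 around its mean. For Prx (own spread 0.59) they were Pcdhgb4 (0.19), the myelin gene Mal (0.242) and the nuclear RNA Kcnq1ot1 (0.267). For Cdh19 (0.514) they were Ifi203-ps (0.183), Klhdc8b (0.192) and Srek1 (0.198). Among the closest to Mbp (0.234) were Sec24b (0.0682) and Parp4 (0.0861). Pmp22 (0.0969) was closest to Usp16 (0.0352), Ermp1 (0.0417) and Strn (0.0455), and Egr2 (0.292) to Mok (0.168), Ppif (0.174) and Dtx4 (0.178). These values are a description over 10 libraries, and genes of small spread come close to many others.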

How the data were processed

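Total RNA was purified with RNeasy from flash-frozen tissue, depleted of ribosomal RNA and made into strand-marking libraries (TruSeq Stranded Total RNA with Ribo-Zero Gold), per the labels' protocols. The authors deposited 1 table of raw counts per gene. Per the submitters' processing notes, the tools were STAR 2.5.2b, featureCounts 1.5.1 and DESeq2 1.16.0 on GRCm38, and the strand setting and the handling of multiply mapped reads are not given in the sources used. Of the exonic bases of Prx 5.38% are shared with another gene, and of those of Cadm2 2.61%.

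Of 52636 identifiers, 52403 had a symbol and position in GENCODE M21 (GRCm38) and 233 had none. filterByExpr left 15927 genes. They were scaled with TMM factors and the groups compared with edgeR 4.0.16's two-sided quasi-likelihood test (R 4.3.3) with no covariate. Benjamini-Hochberg adjustment ran over all genes tested, with a threshold of 0.05. Scores and correlations used log2 CPM (prior count 2), and correlations an exact permutation of libraries within genotype (14400 arrangements). For Tcf7l2 an exact permutation test over 252 regroupings gave 0.0079, the smallest p it allows. The 20 same-group pairs of libraries differed by more than sampling noise (chi-square per degree of freedom 6.57 to 26.2). That spread may be technical and does not show that each library is a separate mouse. Each library was treated as a single unit. The edgeR step was also run on counts simulated with independent noise in each library, and the outcome is not reported here. Alternatives were other scalings, no filter, DESeq2 1.42.0, limma-voom (limma 3.58.1), 2 covariates and each library left out, and 2 more were added after seeing the data (the nuclear RNA score as a covariate, and control 5 and knockout 1 both left out).

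The members and lists were chosen with earlier results of these data known. Named were the 8 members and Tcf7l2, the called genes of the 6 nerve lists, 14 nerve genes in any case, and the most abundant gene of other lists. Single-gene results of some named genes are not reported here. Drp2 fell outside this rule and was chosen after its values were seen. Likeness took the 3 nearest genes of average log2 CPM of at least 0.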

Additional observations from a re-analysis of the deposited data

Results flagged for a closer look

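Between replicates, 1 library stood apart from the other 4 of its group in 2 of the 40 groups examined (20 genes, both genotypes), and chance alone marks about 1 group in 20. Egr2 was highest in knockout 3, at 10.9 CPM against 8.33 to 8.96 CPM in the other knockouts. Ngfr was highest in knockout 1, at 1.44 CPM against 0.266 to 0.365 CPM in the other knockouts, on 25 counts.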

How the results depend on the processing

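No paired analysis was possible because the replicate numbers follow the order of the records and pair nothing across the groups. S100b kept its direction and its call under all 9 other settings and all 10 fits that leave a library out. Of the members, 2 were lower as reported and 1 with limma-voom, the muscle score or the nuclear score. With no filter, with DESeq2 or without both control 5 and knockout 1, 3 were lower. With a library left out the count was 1 to 3 (3 without control 5, 1 without control 1, 2, 4 or any knockout). The log2 fold change of Prx was -0.83 with limma-voom, -0.86 with the muscle score, -0.14 with the nuclear score and -1.05 to -0.70 with a library left out. That of Cdh19 passed with no filter (-0.69), with DESeq2 (-0.71) and without control 5 and knockout 1 (-0.76), and ran from -0.87 to -0.55 with a library left out. Of the myelin parts, 3 were lower with no filter, 1 with limma-voom and 0 with either score (0 to 2 with a library left out). In the other direction, 1 was higher with no filter or DESeq2 (0 to 1). Of the regulators, 1 was higher with the share of non-protein-coding counts as a covariate or without control 5 and knockout 1. Of the non-myelinating genes, 1 was lower with limma-voom or the muscle score and 0 with the nuclear score. With DESeq2, 4 were lower, and without both libraries 6 (1 to 5 with a library left out, 5 without control 5). With the share of non-protein-coding counts as a covariate, 2 were lower. Of the sheath genes, 1 was lower without both libraries (0 to 1). Over all genes, 338 were lower and 323 higher with the muscle score, 42 and 12 with the nuclear score, 2005 and 1769 without both libraries, and 310 to 1708 lower and 227 to 1386 higher with a library left out. EGR letters on the gene strand alone were in 0 member genes. Signs turned, none past the threshold, for Mag (-0.0095 without control 5, -0.048 without both; -0.0095 to 0.30 with a library left out), Jun (0.0094 and 0.032), Ncam1 (0.026 without both) and Mal (0.37 with the nuclear score). The cause of these moves was not tested, and depth limits Sox10 and Ngfr.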
